A study of Mus musculus with 14 samples.

Results

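The Eph receptors described here are 10 genes of the 22485 in the deposited count table: Epha3, Epha4, Epha5, Epha6, Epha7, Epha8, Epha10, Ephb1, Ephb2 and Ephb6. They were taken by gene symbol as a receptor family, which was selected on the measured difference between dissociated and control tissue, where Epha6 was lower after dissociation. Values from the comparison of dissociated with control tissue are therefore given as a description with no test. The tissue came from the hippocampus of 1 wild-type C57BL/6 mouse, per the authors' deposited sample table, so n counts tissue samples of that mouse and p-values measure the spread between those samples only. Regions CA1, CA3 and DG (dentate gyrus) were each sampled under 2 treatments. Control samples were homogenised directly. Dissociated samples stood for 75 min at room temperature in artificial cerebrospinal fluid with pronase at 1 mg/ml, and were then triturated in fluid with 1% fetal bovine serum. RNA of both kinds was isolated with the same kit. CA1 gave 3 control and 3 dissociated libraries, CA3 gave 2 and 2, and DG gave 2 and 2, making 14 in all.

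Eph receptors are receptor tyrosine kinases that bind ephrins on the surface of neighbouring cells, so the signal passes on contact. The A class binds mainly ephrin-A ligands, which are held by a lipid anchor, and the B class binds mainly ephrin-B ligands, which span the membrane; Epha4 binds both kinds. In the hippocampus the family is known for guiding axons during development and for shaping dendritic spines and synaptic plasticity in the adult.

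Libraries held between 65887 and 6646655 estimated counts, and 3 dissociated libraries (CA1 replicates 2 and 3, DG replicate 3) held fewer than 500000. Region markers did not follow the labels in every library. The summed level of another region's marker list was higher than that of the labelled region in 4 of the 14 libraries. In the library labelled CA1 dissociated replicate 3, the CA1 pyramidal list (9 genes) summed to 155 CPM (counts in a library scaled to a common total) and the CA3 pyramidal list to 1624 CPM. The other 5 CA1 libraries had 2175 to 3266 CPM for the CA1 list. Both libraries labelled CA3 replicate 1 had more of the CA1 list (2421 CPM in control, 1825 CPM in dissociated) than of the CA3 list (293 and 463 CPM). DG control replicate 2 had 1256 CPM of the CA3 list and 878 CPM of the granule cell list. Log2 fold changes between regions are therefore given over all 14 libraries and again over the 10 libraries in which the labelled region's own list summed highest, a choice made after seeing the data. Levels, shares and ranks are given over all 14.

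Epha4 was the most abundant of the 10 receptors and Epha8 the least. On the TPM scale, which corrects for transcript length as well as depth and allows genes to be compared, mean levels over the 14 libraries were 183 ± 85.8 (SD) for Epha4, 122 ± 74.4 for Epha7 and 70.0 ± 27.8 for Ephb6. Epha6 followed with 66.1 ± 66.9 TPM, Epha5 with 54.3 ± 24.0 and Epha10 with 42.6 ± 24.9. Among these 6 each step to the next gene was smaller than the SD of the higher one. Ephb2 (12.6 ± 5.68 TPM), Ephb1 (11.8 ± 10.2) and Epha3 (5.13 ± 4.11) were lower, and Epha8 had 0.426 ± 0.678 TPM.

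Epha4, a receptor known in adult hippocampal neurons for its part in spine shape, had the highest TPM of the 10 in 12 of the 14 libraries, and Epha7 had it in the other 2. Epha4 made up 31.9 ± 6.92% (SD, n = 14) of the TPM summed over the 10 genes, and Epha7 made up 20.6 ± 7.67%. In control libraries Epha6 made up 20.01 ± 2.34% of the summed TPM in CA1 (n = 3), 12.96 ± 6.13% in CA3 (n = 2) and 3.83 ± 1.54% in DG (n = 2). In dissociated libraries its share was 9.25 ± 4.61%, 8.38 ± 2.72% and 4.69 ± 4.64%. By mean TPM it was the third of the 10 genes in CA1, the fourth in CA3 and the sixth in DG in control libraries, and the fifth, the fifth and the seventh in dissociated libraries.

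**Figure D1:**
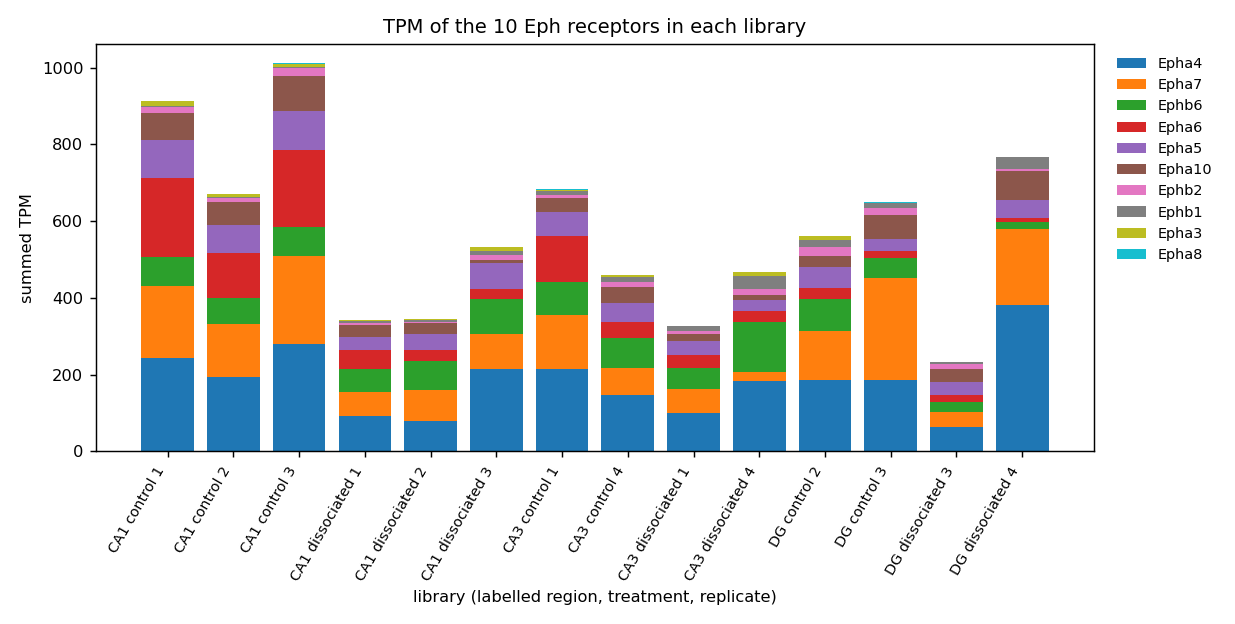
TPM of the 10 Eph receptors stacked for each of the 14 libraries (vertical axis, summed TPM; horizontal axis, library by labelled region, treatment and replicate). Epha4 (bottom) is the largest segment in 12 libraries, and the Epha6 segment is widest in the 3 CA1 control libraries, at 119 to 204 TPM.

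Regions were compared in a fit of region and treatment across 13063 genes, in which 9 of the 10 receptors passed the filter on low counts. Epha8, which had 31 estimated counts in all, did not. In CA1 against DG, 2 of the 9 tested receptors were called at an adjusted p under 0.05, Epha6 higher and Ephb1 lower; over all genes the same call took 4.06%. In CA3 against DG, 1 of 9 (Epha6) was called, against 1.77% of all genes. In CA1 against CA3, 1 of 9 (Ephb1) was called, against 0.115% of all genes, or 15 genes. Over the 10 libraries 3 of 9 (Epha6, Ephb1 and Ephb6), 1 of 9 (Epha7) and 1 of 9 (Ephb1) were called, against 6.36%, 3.92% and 1.31% of all genes. The members' median log2 fold change was 0.04 in CA1 against DG, where that of all genes was -0.04. It was -0.06 in CA3 against DG (all genes 0.04) and 0.48 in CA1 against CA3 (all genes -0.06).

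**Figure D2:**
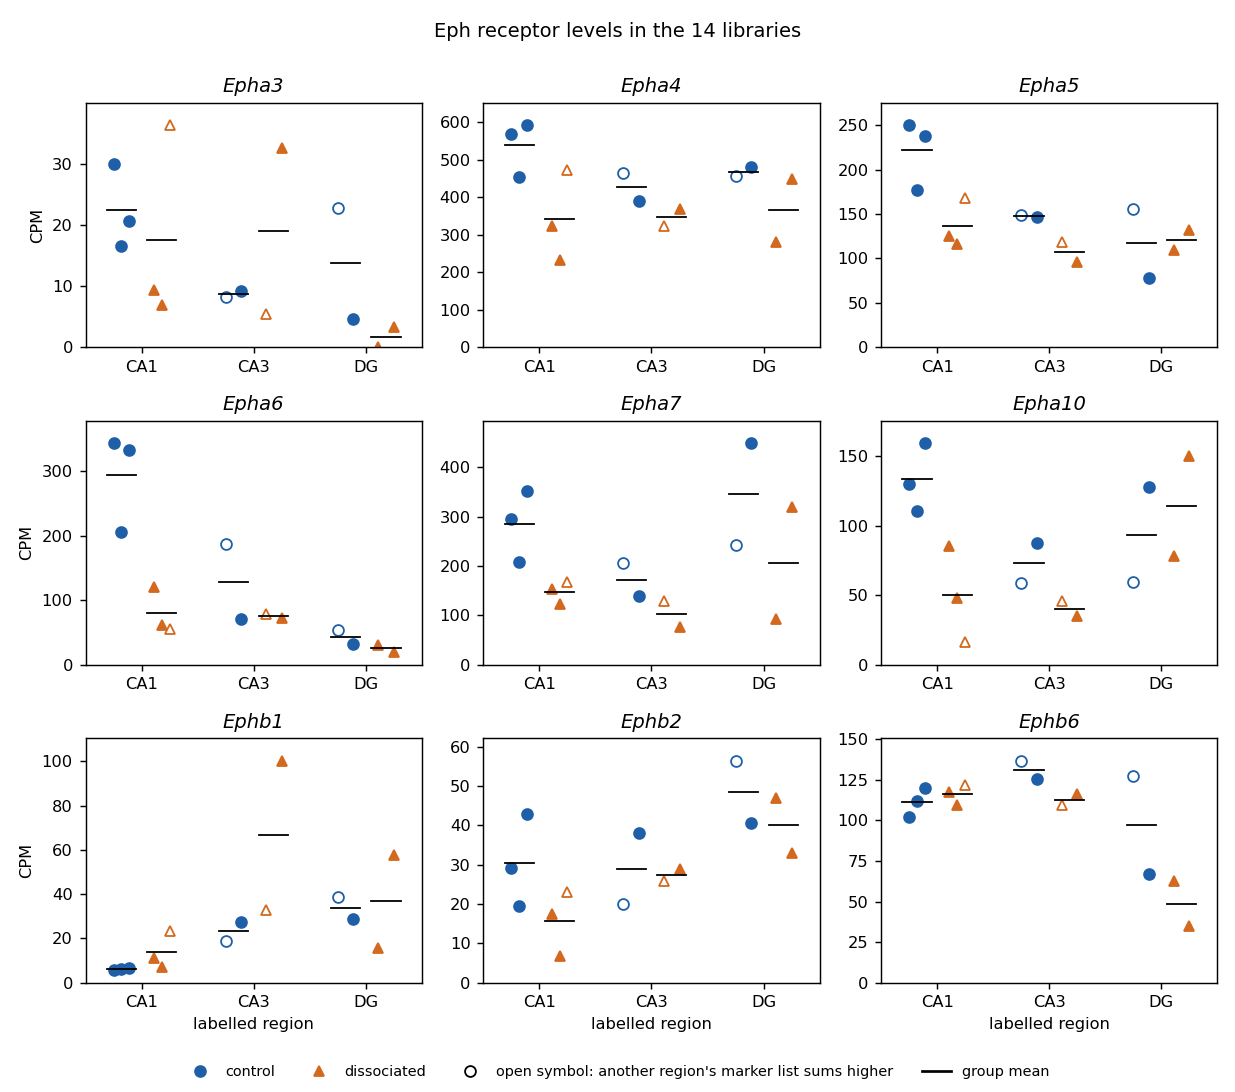
CPM of the 9 tested receptors in every library (vertical axis, CPM from 0; horizontal axis, labelled region). Circles are control and triangles dissociated libraries, black lines are group means, and open symbols are the 4 libraries in which another region's marker list summed higher. All 4 DG libraries lie below every CA1 and CA3 library for Epha6.

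Epha6, an A-class receptor whose mRNA is found mainly in the nervous system, had the largest log2 fold change between regions among the 9 tested receptors. It lies on chromosome 16 (GRCm38, chr16:59653483-60605531, minus strand), and in GENCODE M21 no protein-coding gene overlaps it. In CA1, Epha6 had 344, 206 and 333 CPM in control replicates 1 to 3 and 121, 61.5 and 56.1 CPM in dissociated replicates 1 to 3. In CA3 it had 187 and 70.4 CPM in control replicates 1 and 4, and 79.4 and 72.5 CPM in dissociated replicates 1 and 4. In DG it had 53.5 and 33.0 CPM in control replicates 2 and 3, and 31.2 and 19.8 CPM in dissociated replicates 3 and 4. Every DG library thus lay below every CA1 and every CA3 library, whichever the treatment. The 31.2 CPM in DG dissociated replicate 3 rests on 2 estimated counts, and 3 counts there amount to 46.8 CPM.

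Epha6 was 2.49 ± 0.39 log2 units higher in CA1 than in DG (SE; edgeR quasi-likelihood test, adjusted p = 0.0006). Over the 10 libraries whose own region's markers summed highest, the difference was 2.95 ± 0.44 (edgeR, adjusted p = 8.9e-05). Between CA3 and DG it was 1.78 ± 0.41 (edgeR, adjusted p = 0.0236) over all libraries. That call was lost over the 10 libraries, with 1.56 ± 0.48 (edgeR, adjusted p = 0.0690), where CA3 has 1 library of each treatment. Leaving out 1 library also ended it in 4 cases (edgeR): CA3 control replicate 1 (adjusted p = 0.0889), CA3 dissociated replicate 1 (0.0788), DG control replicate 3 (0.182) and DG dissociated replicate 4 (0.0606). CA1 exceeded CA3 by 0.71 ± 0.33 over all libraries (edgeR, adjusted p = 0.882; 95% interval 0.03 to 1.39) and by 1.39 ± 0.41 over the 10 (edgeR, adjusted p = 0.121), and neither passed the test. CA1 lay above CA3 without overlap in control libraries, while the dissociated libraries of the 2 regions overlapped. In bulk tissue, fewer cells of a type and less RNA per cell cannot be told apart.

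CA1 pyramidal markers moved with Epha6. In CA1 against DG 8 of 8 tested genes of that list were called higher (4.06% of all genes called), and in CA3 against DG 7 of 8 (1.77%). The list was chosen as markers of a region, with earlier results of these data known, so these calls are no test. Its summed level was 155 to 3266 CPM in CA1, 109 to 2421 CPM in CA3 and 90.9 to 406 CPM in DG. In CA3 it was 2421 and 1825 CPM in the control and dissociated replicate 1 libraries, and 911 and 109 CPM in those of replicate 4. Of its defining markers Fibcd1 was at 0 in 1 library and Wfs1 in none. The library labelled CA1 dissociated replicate 3 had the lowest Epha6 of the 6 CA1 libraries (56.1 CPM) and the lowest CA1 list. CA3 control replicate 1 had the highest of both among the CA3 libraries. Other libraries did not follow the list: CA1 dissociated replicate 2 had 61.5 CPM of Epha6 with 2175 CPM of the list. The 56.1 and 61.5 CPM rest on 17 and 9 estimated counts. In CA1 dissociated replicate 2, 1 count amounts to 6.84 CPM, so counting error covers the gap between the 2 values. The remaining CA3 libraries had 70.4 to 79.4 CPM of Epha6 across 109 to 1825 CPM of the list. The part of these cells in the Epha6 difference was not tested.

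**Figure D3:**
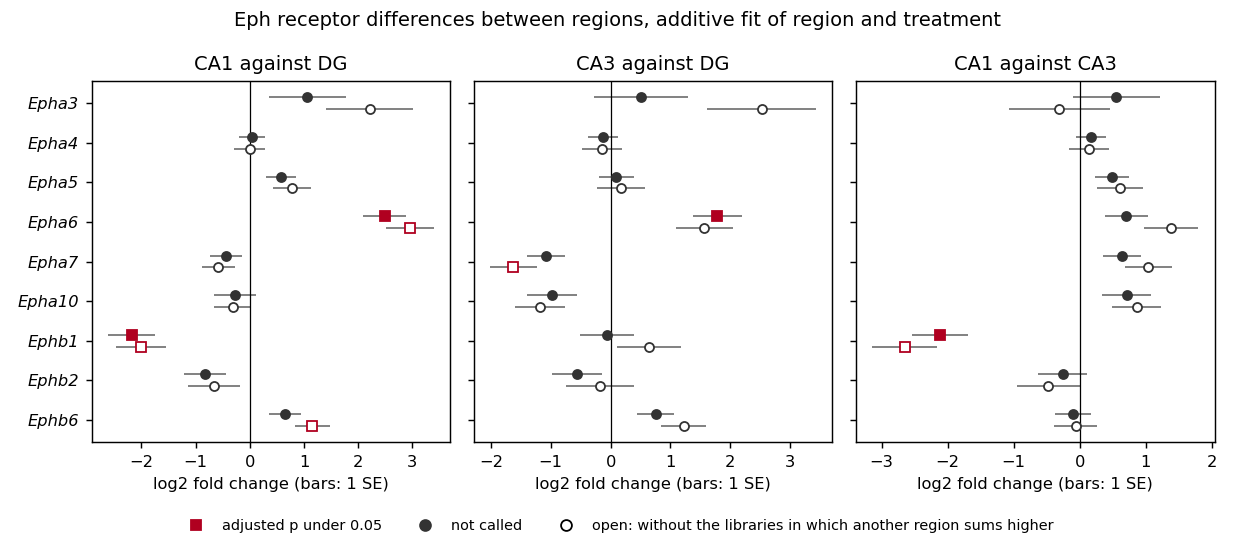
Log2 fold change of the 9 tested receptors between regions (horizontal axis; bars, 1 SE), from the fit over 14 libraries (filled) and over 10 libraries (open). Red squares mark calls at an adjusted p under 0.05: over 14 libraries Epha6 lies at 2.49 and Ephb1 at -2.18 in CA1 against DG, Epha6 at 1.78 in CA3 against DG, and Ephb1 at -2.12 in CA1 against CA3.

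Epha7 is a receptor for which short forms lacking the kinase domain are known. The gene lies on chromosome 4 (GRCm38, chr4:28813131-28967499, plus strand). Of its 4 transcripts in the deposited transcript files, Epha7-001 and Epha7-004 have coding sequences of 2997 and 2985 bases in GENCODE M21. Epha7-002 and Epha7-003 have 1833 and 1881. Both short forms share their first 1798 coding bases with Epha7-001 and then leave it for 35 and 83 coding bases of their own that end in a stop codon, while Epha7-001 goes on for 1199 coding bases. The 3 sequences below, from the GENCODE M21 transcripts, show that point, because the levels of the 2 kinds are compared next; lower case marks the last 30 shared coding bases and capitals the first 30 that follow.
Epha7-001: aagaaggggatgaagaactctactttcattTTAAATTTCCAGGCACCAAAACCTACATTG
Epha7-002: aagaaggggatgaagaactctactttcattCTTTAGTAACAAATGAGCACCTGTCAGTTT
Epha7-003: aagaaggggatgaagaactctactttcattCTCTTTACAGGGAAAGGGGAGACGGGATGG

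The transcripts with the short coding sequence carried most of the Epha7 TPM. Together they made up 75.9 ± 13.6% (SD, n = 14) of it and were above the other 2 transcripts in 13 of 14 libraries. The share was 78.4, 80.7 and 79.6% in CA1 control replicates 1 to 3, 75.5 and 72.0% in CA3 control replicates 1 and 4, and 72.7 and 78.6% in DG control replicates 2 and 3. In dissociated libraries it was 75.5, 100.0 and 81.9% in CA1 replicates 1 to 3, 81.4 and 34.9% in CA3 replicates 1 and 4, and 75.2 and 76.5% in DG replicates 3 and 4. The 7 control libraries thus lay within 72.0 to 80.7%. CA3 dissociated replicate 4 stood below all others, and the value of 100.0% in CA1 dissociated replicate 2 rests on 18 estimated counts. TPM divides by transcript length, and the short-coding transcripts are 2880 and 2323 bases long against 6746 and 6615. In estimated counts the 2 kinds were closer, for example 385 against 275 in CA1 control replicate 1 and 1663 against 1148 in DG control replicate 3. The deposited values are estimates from reads shared by these transcripts, so the split between them has an error that was not given.

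**Figure D4:**
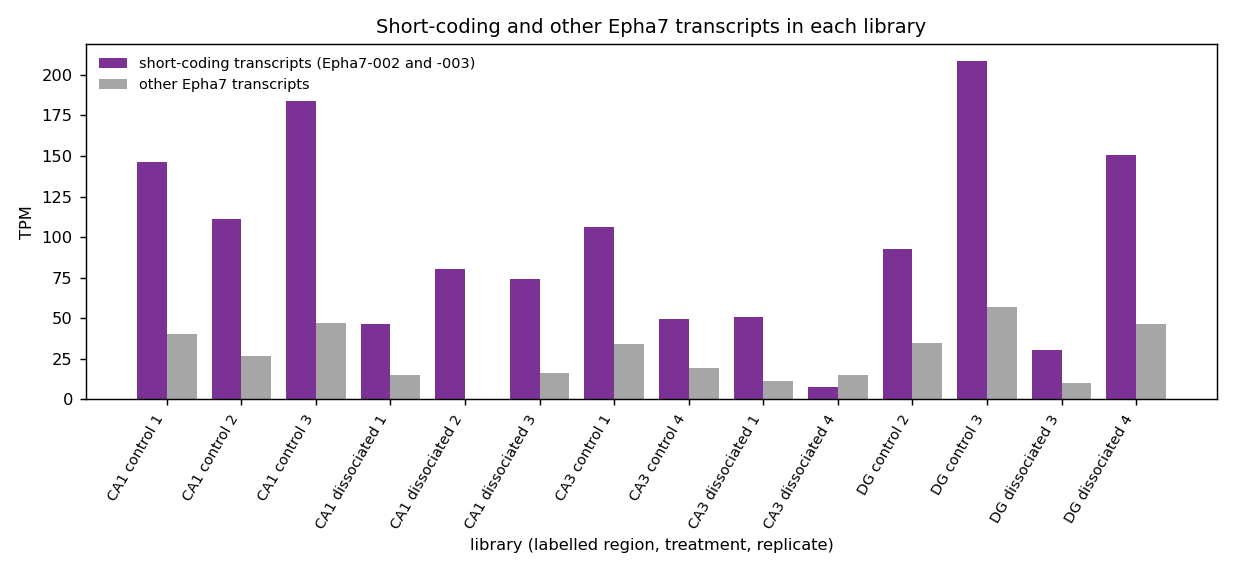
TPM of the short-coding Epha7 transcripts (purple, Epha7-002 and Epha7-003 summed) and of the other Epha7 transcripts (grey, Epha7-001 and Epha7-004 summed) in each library. The purple bar is the taller in 13 of 14 libraries, the exception being CA3 dissociated replicate 4 with 7.96 against 14.9 TPM.

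Summed over its transcripts, Epha7 had 295, 208 and 353 CPM in CA1 control replicates 1 to 3, 206 and 139 CPM in CA3 control replicates 1 and 4, and 243 and 450.0 CPM in DG control replicates 2 and 3. After dissociation it had 154, 123 and 168 CPM in CA1 replicates 1 to 3, 129.5 and 76.2 CPM in CA3 replicates 1 and 4, and 93.7 and 319 CPM in DG replicates 3 and 4. Control CA3 libraries lay below control DG libraries without overlap, whereas the dissociated ones overlapped. The difference between CA3 and DG was -1.08 ± 0.32 log2 units and did not pass the test over 14 libraries (edgeR, adjusted p = 0.0878; 95% interval -1.74 to -0.42). It passed over the 10 libraries, with -1.62 ± 0.39 (edgeR, adjusted p = 0.0165).

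Epha4 showed no called difference between regions. It had 568.4, 455 and 593 CPM in CA1 control replicates 1 to 3, 465.7 and 389 CPM in CA3 control replicates 1 and 4, and 457 and 480.4 CPM in DG control replicates 2 and 3. The dissociated libraries had 322, 233 and 472 CPM in CA1, 324 and 369 CPM in CA3, and 281 and 449.7 CPM in DG, in order of replicate number. All regions overlapped, and CA1 differed from DG by 0.04 ± 0.23 log2 units (95% interval -0.44 to 0.53), or by -0.0037 ± 0.28 over the 10 libraries.

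Epha5, an A-class receptor known in axon guidance, ranged from 116 to 250.4 CPM in CA1, from 95.8 to 149 CPM in CA3 and from 78.4 to 156 CPM in DG. Its 3 CA1 control libraries lay above all CA3 and DG control libraries, but the fit gave 0.58 ± 0.28 log2 units for CA1 against DG (edgeR, adjusted p = 0.308), and 0.78 ± 0.36 over the 10 libraries (edgeR, adjusted p = 0.242). Epha10, a member whose kinase is thought to be inactive, ranged from 16.5 to 159.8 CPM in CA1, from 35.3 to 87.5 CPM in CA3 and from 59.4 to 150.4 CPM in DG. Its lowest value was in the library labelled CA1 dissociated replicate 3. The difference between CA3 and DG was -0.98 ± 0.42 (edgeR, adjusted p = 0.323; 95% interval -1.85 to -0.11), and -1.18 ± 0.42 over the 10 libraries (edgeR, adjusted p = 0.136).

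Epha3 had 6.84 to 36.3 CPM in CA1, 5.35 to 32.5 CPM in CA3 and 0 to 22.7 CPM in DG, and the regions overlapped. The highest values were 36.3 CPM in the library labelled CA1 dissociated replicate 3, 32.5 CPM in CA3 dissociated replicate 4 and 29.96 CPM in CA1 control replicate 1. The first 2 had 1624 and 1778 CPM of the CA3 pyramidal list, and CA1 control replicate 1 had 124 CPM, whereas CA3 control replicate 4, with 1385 CPM of that list, had 9.17 CPM of Epha3. Over all libraries, CA1 against DG gave 1.06 ± 0.71 log2 units for Epha3 (edgeR, adjusted p = 0.517), and over the 10 libraries 2.22 ± 0.80 (edgeR, adjusted p = 0.118). Epha8 was detected in 7 of the 14 libraries, with its highest value, 5.86 CPM from 8 estimated counts, in DG control replicate 2. In the libraries at 0, a count of 0 allows up to 0.685 CPM in CA1 dissociated replicate 1 and up to 46.8 CPM in DG dissociated replicate 3, which covers counting error only.

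Ephb1, a B-class receptor known in axon guidance at the midline and in neural progenitors of the dentate gyrus, was lowest in CA1. It lies on chromosome 9 (GRCm38, chr9:101922128-102354693, minus strand). The protein-coding gene 9630041A04Rik overlaps it on the other strand, and whether the counting used strand is not given in the sources used here. In CA1, Ephb1 had 5.81, 5.92 and 6.71 CPM in control replicates 1 to 3 and 11.2, 6.84 and 23.1 CPM in dissociated replicates 1 to 3. In CA3 it had 18.9 and 27.5 CPM in control replicates 1 and 4, and 32.9 and 100.4 CPM in dissociated replicates 1 and 4. In DG it had 38.8 and 28.8 CPM in control replicates 2 and 3, and 15.6 and 57.9 CPM in dissociated replicates 3 and 4. Within each treatment every CA1 library lay below every CA3 library. Only the library labelled CA1 dissociated replicate 3, which has the CA3 markers, reached into the range of CA3 and DG.

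Ephb1 was lower in CA1 than in DG, with a log2 fold change of -2.18 ± 0.44 (edgeR, adjusted p = 0.00408). It was also lower in CA1 than in CA3, with -2.12 ± 0.43 (edgeR, adjusted p = 0.0447). Over the 10 libraries the differences were -2.01 ± 0.46 (edgeR, adjusted p = 0.00759) and -2.65 ± 0.49 (edgeR, adjusted p = 0.00416). CA3 and DG differed by -0.06 ± 0.45 (95% interval -0.98 to 0.86), and the direction turned over the 10 libraries, with 0.64 ± 0.54 (edgeR, adjusted p = 0.603). With any 1 library left out, the call against DG held in all 14 fits, and it was lost with a replicate block (edgeR, adjusted p = 0.0549), in dissociated libraries only (edgeR, 0.451) and in limma on log2(TPM + 1) (0.212). The call against CA3 held in 4 of 14, those without CA1 dissociated replicate 3, DG control replicate 2 or DG dissociated replicate 3 or 4. In the other 10 the adjusted p lay between 0.0567 and 0.444 (edgeR), the latter without CA3 dissociated replicate 4, where the log2 fold change was -1.63. Oligodendrocyte markers moved with both differences. Of 19, 2 were called lower in CA1 than in CA3, where 0.115% of all genes were called. Against DG 2 of 19 were called lower in CA1, where 4.06% of all genes were called. All 19 had a negative log2 fold change in each comparison, with medians of -1.74 and -1.23. In CA3 against DG, 17 of the 19 were positive (median 0.54, 0 called). The summed level of the list was 763 to 7299.5 CPM in CA1, 3882 to 14470.0 CPM in CA3 and 2094 to 10754 CPM in DG. Mbp and Mog were above 0 in every library. Astrocyte markers were also negative in CA1, in 16 of 16 cases against CA3 (median -0.51, 0 called). Against DG they were negative in 15 of 16 (median -0.51, 1 called). The part of these cells in the Ephb1 difference was not tested.

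Ephb6, a B-class receptor whose kinase domain is inactive, lay between 102 and 137 CPM in all CA1 and CA3 libraries and varied more in DG. It had 102, 112 and 120.0 CPM in CA1 control replicates 1 to 3, 137 and 125 CPM in CA3 control replicates 1 and 4, and 128 and 67.2 CPM in DG control replicates 2 and 3. The dissociated libraries had 118, 109 and 122 CPM in CA1, 109 and 116 CPM in CA3, and 62.4 and 34.7 CPM in DG. Of the 4 DG libraries, 3 lay below all others; the DG library within the range of CA1 and CA3 was control replicate 2, the one with more of the CA3 list than of the granule cell list. CA1 against DG gave 0.65 ± 0.30 log2 units for Ephb6 over 14 libraries (edgeR, adjusted p = 0.284) and 1.16 ± 0.33 over the 10 libraries (edgeR, adjusted p = 0.0346). CA3 against DG gave 0.75 ± 0.32 over 14 libraries (edgeR, adjusted p = 0.310) and 1.22 ± 0.38 over the 10. CA1 against CA3 gave -0.10 ± 0.27 over 14 libraries. Inhibitory interneuron markers moved the same way against DG, with 2 of 12 called higher in CA1 and 3 of 12 in CA3. Over all genes 4.06% and 1.77% were called there, in either direction. In CA1 against CA3, 10 of 12 of these markers were negative, with a median of -0.73 and 0 called. Their summed level was 620.3 to 1059.9 CPM in CA1, 961 to 1518 CPM in CA3 and 259.6 to 1359.7 CPM in DG. The highest in DG was again DG control replicate 2, and Gad2 was at 0 in 1 library. Their part in the Ephb6 values was not tested.

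Ephb2, known for holding NMDA receptors at synapses, had 6.84 to 43.0 CPM in CA1, 19.9 to 37.9 CPM in CA3 and 33.1 to 56.4 CPM in DG. The CA1 and DG ranges overlapped through CA1 control replicate 3. The difference was -0.83 ± 0.39 log2 units (edgeR, adjusted p = 0.299; 95% interval -1.63 to -0.02), and -0.65 ± 0.48 over the 10 libraries (edgeR, adjusted p = 0.526).

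Of the 10 receptors, 7 (Epha4, Epha5, Epha7, Epha10, Ephb1, Ephb2 and Ephb6) had at least 2 transcripts at 10% or more of the gene's TPM. Whether the share of the most abundant transcript differed by region was tested by exact permutation of region labels within treatment, two-sided, over 44100 assignments. None of the 7 passed after Benjamini-Hochberg adjustment over them, and none had an unadjusted p under 0.05. The lowest was for Epha7-002, which held 71.7 ± 19.4% of Epha7 TPM in CA1, 49.4 ± 21.8% in CA3 and 38.6 ± 30.9% in DG (SD, n = 6, 4 and 4; exact permutation p = 0.148, adjusted p = 0.861). Epha6 came almost wholly from Epha6-001, the form with a coding sequence of 3393 bases, at 93.7 ± 14.6% of its TPM. For Epha10, the transcript with a coding sequence of 879 bases held 29.1 ± 16.0% of the TPM.

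After dissociation, 8 of the 9 tested receptors had a negative log2 fold change and Ephb1 had a positive one; that of Epha3 was positive in 3 of 22 alternatives, up to 0.11. The 10 genes summed to 707 ± 192 TPM in control libraries (SD, n = 7) and 431 ± 178 TPM in dissociated libraries (SD, n = 7). The members' median was -0.45 against -0.11 for all genes. Of the 9, 1 was called (Epha6), where 0.773% of all genes were called; this comparison helped choose the members, so nothing is read from it. Over the 10 libraries Epha6 had -0.95 ± 0.32 and Ephb1 1.06 ± 0.42.

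Epha6 had the most negative value, -1.28 ± 0.29 log2 units, and all 3 CA1 dissociated libraries (56.1 to 121 CPM) lay below the CA1 control libraries (206 to 344 CPM). In DG the 2 groups also did not overlap, at 19.8 to 31.2 against 33.0 to 53.5 CPM. The 31.2 CPM rests on 2 estimated counts in DG dissociated replicate 3, where 3 counts amount to 46.8 CPM. Counting error thus covers that gap. In CA3 the groups overlapped, at 72.5 to 79.4 against 70.4 to 187 CPM. Ephb1 had 1.07 ± 0.37, and its dissociated libraries lay above its control libraries in CA1 and in CA3 but not in DG. Epha7 (-0.77 ± 0.24), Epha10 (-0.68 ± 0.32), Ephb2 (-0.46 ± 0.33), Epha4 (-0.45 ± 0.19), Epha5 (-0.42 ± 0.22), Ephb6 (-0.30 ± 0.24) and Epha3 (-0.15 ± 0.59) lay between. Within CA1, CA3 and DG, the Epha6 values were -1.78 ± 0.41, -0.76 ± 0.48 and -0.96 ± 0.66. Those of Ephb1 were 1.14 ± 0.60, 1.499 ± 0.61 and 0.46 ± 0.66. Over the 10 libraries, where CA3 has 1 library of each treatment, Epha6 had -1.49 in CA1, 0.06 in CA3 and -0.59 in DG. Ephb1 there had 0.82, 1.88 and 0.78. The CA3 library at 187 CPM of Epha6, control replicate 1, is among those left out, as it has more of the CA1 list. In CA1 the lowest dissociated Ephb1 value, 6.84 CPM, came from 1 estimated count, and control values reached 6.71 CPM. The highest, 23.1 CPM, was in the library labelled CA1 dissociated replicate 3, which has the CA3 markers.

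**Figure D5:**
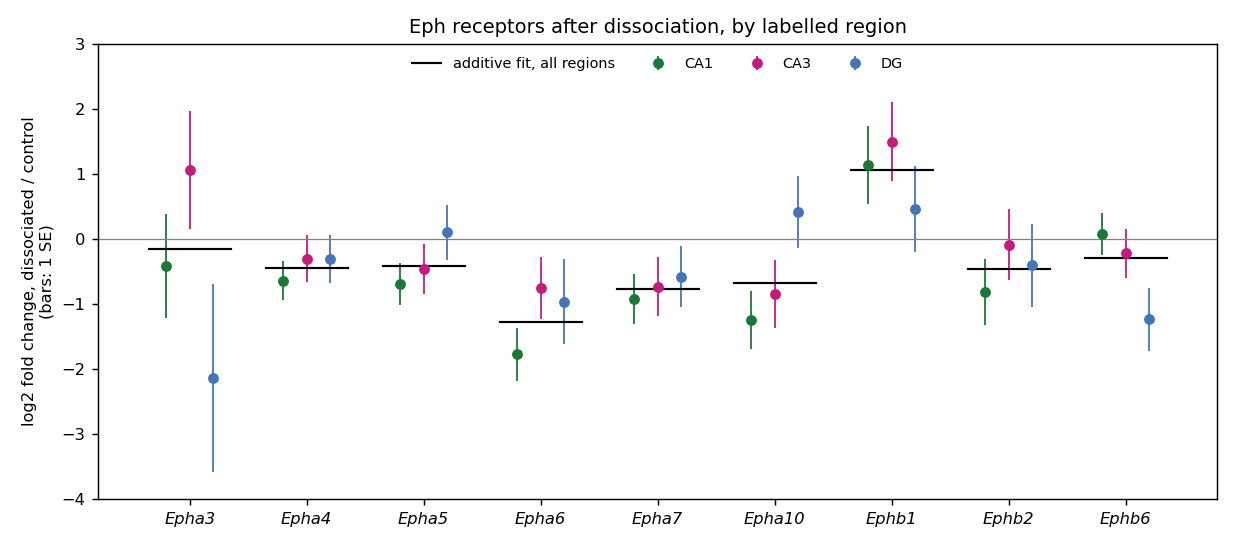
Log2 fold change of the 9 tested receptors in dissociated against control libraries (vertical axis; bars, 1 SE), within CA1, CA3 and DG (coloured points) and in the fit over all regions (black lines). Epha6 lies lowest over all regions at -1.28, and Ephb1 is the one black line above 0, at 1.07.

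Glial markers moved with treatment. Oligodendrocyte genes were called higher after dissociation in 14 of 19 cases, with summed levels of 763 to 4386 CPM in control and 1739 to 14470.0 CPM in dissociated libraries. Microglial genes were called higher in 13 of 20, with 411 to 703 CPM against 822 to 3276 CPM, and Tmem119 was at 0 in 1 library. Oligodendrocyte precursor markers were positive in 8 of 8 cases (median 1.36, 3 called). Astrocyte markers were positive in 16 of 16 (median 0.61, 0 called). Over all genes 0.773% were called, in either direction. Excitatory neuron markers had a negative log2 fold change in 11 of 13 cases (median -0.38, 0 called), with 11298 to 15113 CPM in control and 6165 to 16061 CPM in dissociated libraries. Inhibitory interneuron markers had one in 10 of 12 (median -0.40, 0 called), with 387 to 1518 against 259.6 to 1351 CPM. The interneuron list was negative in 11 of 12 within DG (median -2.70) and in 10 of 12 within CA3 (-0.43). Within CA1 it was positive in 9 of 12 (0.33). The pyramidal lists parted over all 14 libraries, 4 of which had more of another region's list than of their own. CA1 markers were negative in 8 of 8 cases (median -0.86) and CA3 markers positive in 7 of 7 (median 0.78). In either list 0 genes were called. Within DG the CA1 list was positive in 7 of 8 (median 0.50) and the CA3 list negative in 6 of 7 (median -0.96). Within CA1 the CA3 list was positive in 7 of 7 (median 2.14), and within CA3 in 5 of 7 (median 0.27). The library labelled CA1 dissociated replicate 3 had 155 CPM of the CA1 list and 1624 CPM of the CA3 list. CA1 dissociated replicates 1 and 2 had 2713 and 2175 CPM of the CA1 list, against 2960 to 3266 CPM in control. Their CA3 list had 206 and 191 CPM, against 124 to 160 CPM in control. The part of these cells in the receptor values was not tested.

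Whether the treatment difference departed between regions was tested by the interaction term, which the choice of members had not used. It called 0 of 13063 genes (0%) in edgeR, 1112 of them with an unadjusted p under 0.05, and 0 of the 9 receptors were among those 1112. DESeq2 called 28 of all genes and 0 of the receptors. The lowest unadjusted p among the members was 0.083, for Epha10 (adjusted p = 0.634). For Epha6 the adjusted p was 0.767 in edgeR. In the fit of 10 libraries edgeR called 3 genes (0.0219%) and 0 receptors. There 2 receptors had an unadjusted p under 0.05, Epha3 (edgeR, adjusted p = 0.394) and Epha5 (edgeR, adjusted p = 0.386).

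The ephrins, the ligands of these receptors, differed between regions in a few cases. Of 8 ephrins 7 were tested, and 2 of them were called in CA1 against DG (both higher), where 4.06% of all genes were called. In CA3 against DG 0 were called (all genes 1.77%), and in CA1 against CA3 also 0 (all genes 0.115%). Efna3, a ligand of the A class, was 1.14 ± 0.31 log2 units higher in CA1 than in DG (edgeR, adjusted p = 0.0400). Efnb2, a ligand of the B class and of Epha4, was 2.44 ± 0.52 higher (edgeR, adjusted p = 0.00642). These were, over the 10 libraries, 1.46 ± 0.38 (edgeR, adjusted p = 0.0170) and 2.85 ± 0.62 (edgeR, adjusted p = 0.00438). Efnb3 had the highest mean level of the family at 90.5 ± 27.2 TPM, followed by Efna3 at 67.8 ± 25.7 TPM and Efnb2 at 12.96 ± 11.4 TPM (SD, n = 14). Efnb1 had 8.88 ± 5.39 TPM, Efna4 8.60 ± 19.3, Efna2 6.28 ± 4.12, Efna1 5.56 ± 10.1 and the untested Efna5 1.28 ± 1.75. None of the 7 was called in the comparison of dissociated with control tissue.

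Of the 4 other Eph receptors, Epha1 and Ephb4 did not pass the filter and Epha2 was not called in any region comparison. Ephb3 was 2.51 ± 0.64 log2 units higher in CA1 than in DG (edgeR, adjusted p = 0.0252), and 3.87 ± 0.68 over the 10 libraries (edgeR, adjusted p = 0.000553). Of 30 genes known to act with or below Eph receptors, 1 was called in CA1 against DG and 1 in CA3 against DG. In these comparisons 4.06% and 1.77% of all genes were called. The gene was the same in both. This was Tiam1, an exchange factor that activates Rac, with -3.08 ± 0.41 (edgeR, adjusted p = 0.000151) and -2.69 ± 0.45 (edgeR, adjusted p = 0.00245). The other 29 were not called in these comparisons, and 0 of 30 were called in CA1 against CA3 (0.115% of all genes). Over the 10 libraries 6.36% of all genes were called in CA1 against DG and 3.92% in CA3 against DG. Tiam1 had, over the 10 libraries, -3.49 ± 0.38 and -3.40 ± 0.52 and was called in both (edgeR, adjusted p = 1.8e-06 and 0.000270), and Vav3 in CA1 against DG and Limk1 in CA3 against DG were called too.

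With tested genes averaging 5 CPM or more as candidates, those whose log2 CPM followed Epha6 most closely over the 14 libraries were Rasgrp1 (Pearson r = 0.965), Actr2 (0.962) and Anks1b (0.958). Over the 11 libraries of at least 500000 counts they were Kcnh7 (0.989), Large (0.982) and Rasgrp1 (0.976). The closest gene to Ephb6 was Gad2, the enzyme that makes GABA in inhibitory neurons, with r = 0.974 over 14 and 0.987 over 11 libraries. For 6 other members the closest over 14 libraries were, first, Dmxl2 for Epha4 (0.971), Adcy1 for Epha10 (0.941) and Micall1 for Ephb1 (0.934). Phf24 was closest to Epha7 (0.902), Map4k3 to Epha5 (0.878) and Rnf19a to Ephb2 (0.868). Each of these 6 gave way to another gene over the 11 libraries. Between members, r was highest for Epha4 with Epha7 (0.75) and Epha5 with Epha6 (0.72) and lowest for Epha6 with Ephb1 (-0.64). These values describe libraries that share depth, region and treatment.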

How the data were processed

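RNA of 14 tissue samples was sequenced on Illumina HiSeq, per the labels' protocols. The submitters' processing notes name FastQC, cutadapt, kallisto and DESeq2; for genome build, transcript release, strand setting and versions, the sources used here give nothing. The authors deposited estimated counts and TPM per transcript, and a table of counts per gene that differs from the summed transcript estimates by at most 0.5. Depth was 65887 to 6646655 counts. Members and gene lists were chosen with earlier results of these data known. Genes passing a minimum count of 10 (total 15) in edgeR 4.0.16 (R 4.3.3) were scaled by TMM and fitted with region and treatment. Quasi-likelihood tests were adjusted by Benjamini-Hochberg. CPM are TMM-scaled. Named genes were all members, all ephrins, partners called in a region comparison or of lowest p, and the 3 genes nearest Epha6 and 1 nearest each other member; the gene nearest Epha3 is not reported here. Alternatives used DESeq2 1.42.0, limma 3.58.1 on log2(TPM + 1), other scalings, no filter and fewer libraries. Coordinates are from GENCODE M21. Scripts were tested on simulated counts.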

Additional observations from a re-analysis of the deposited data

Results flagged for a closer look

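In 7 of 48 groups of 4 to 7 libraries, 1 library's receptor level stood far from the rest. Chance flags about 1 in 20 groups where values are independent and drawn alike. These groups share libraries and mix treatments or regions, so the 7 cannot be set against that rate. Epha6 in CA3 control replicate 1 had 187 CPM, against 70.4 to 79.4 CPM in the other CA3 libraries. Ephb1 in the library labelled CA1 dissociated replicate 3 had 23.1 CPM, against 5.81 to 11.2 CPM in the other CA1 libraries. Both are libraries in which another region's marker list summed higher than that of the label. Epha8 in DG control replicate 2, another such library, had 5.86 CPM from 8 counts, against 0 to 0.800 CPM in the other DG libraries and 0 to 1.79 CPM in the other control libraries, which makes 2 of the 7 groups. Epha3 in CA3 dissociated replicate 4 had 32.5 CPM, against 5.35 to 9.17 CPM in the other CA3 libraries. Epha4 in DG dissociated replicate 3, the library of lowest depth, had 281 CPM from 18 counts, against 449.7 to 480.4 CPM in the other DG libraries. Epha7 in DG dissociated replicate 4 had 319 CPM, against 76.2 to 168 CPM in the other dissociated libraries.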

How the results depend on the processing

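The 2 receptors called in CA1 against DG became 1 (Epha6) with a replicate block, 1 (Epha6) in limma on log2(TPM + 1) and 0 over dissociated libraries only, and 2 to 3 with 1 library left out. The 1 called in CA3 against DG became 2 (Epha6 and Epha7) with no filter, without the 3 libraries under 500000 counts and in DESeq2. It became 0 with the block, in control libraries only, in dissociated libraries only and in limma, and 0 to 3 with 1 library left out. The 1 called in CA1 against CA3 became 0 with the block, in control only, in dissociated only and in limma, and 0 to 1 with 1 library left out. In dissociated against control, a comparison that selected the members and is no test of them, the 1 called became 3 with the block, 2 in DESeq2 and 0 in limma, without the 3 libraries under 500000 counts and over the 10 libraries, and 0 to 2 with 1 library left out. The interaction and the transcript share gave 0 under all 21 and 18 alternatives. Replicate numbers were not taken to pair the samples. The deviations of same-numbered control and dissociated libraries of a region from their group means correlated at -0.16 to 0.07. Those of the 12 same-numbered pairs from different regions correlated at -0.065 to 0.096. In CA3 and DG, with 2 libraries per group, the deviations within a group mirror each other, so these values cannot decide whether the numbers pair samples. Both CA3 replicate 1 libraries had more of the CA1 list than of the CA3 list, and both CA3 replicate 4 libraries did not. With the block, calls over all genes in dissociated against control went from 101 to 380.

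Over all genes, calls ranged over the alternatives from 15 to 1007 in CA1 against DG (530 as reported), 15 to 616 in CA3 against DG (231), 0 to 179 in CA1 against CA3 (15), 14 to 465 in dissociated against control (101) and 0 to 128 for the interaction (0).

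Direction held for Epha6 in all 3 region comparisons and for Ephb1 in CA1 against DG and against CA3 under every alternative run; 9 of the 27 log2 fold changes between regions, none of them called, reversed in 25 fits, and the cause was not tested. Epha4 in CA1 against DG became -0.0037 over the 10 libraries, -0.15 in dissociated only and -0.037 in limma, and ran from -0.047 (without CA1 dissociated replicate 3) to 0.23 with 1 library left out, with -0.011 without CA1 control replicate 3. Epha10 there became 0.16 without the 3 shallow libraries and 0.57 in control only, and ran from -0.53 to 0.33 (without DG dissociated replicate 4) with 1 left out. In CA3 against DG, Ephb1 became 0.028 with the block, 0.64 over the 10 libraries, 0.55 in dissociated only and 0.068 in limma. With 1 left out it ran from -0.44 to 0.20 (without DG control replicate 2), with 0.17 and 0.16 without CA3 control or dissociated replicate 1. Epha5 became -0.059 with the block and -0.26 in dissociated only, and ran from -0.12 (without DG control replicate 3) to 0.32. Epha3 became -0.47 in control only and ran from -0.25 (without CA3 dissociated replicate 4) to 1.74, and Epha4 ran from -0.19 to 0.044 (without DG dissociated replicate 4). In CA1 against CA3, Epha3 became -0.31 over the 10 libraries and -0.055 in dissociated only, Ephb2 0.077 in control only and Ephb6 0.092 in dissociated only.

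Depth limits the low receptors most: Ephb1 had 1 estimated count in each of CA1 dissociated replicate 2 and DG dissociated replicate 3, where 3 counts amount to 20.5 and 46.8 CPM.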
